A study of Mus musculus with 15 samples.

Results

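The 40 min between 10 and 50 min of an actinomycin D time course are described here in C2C12 cells, an established line of mouse myoblasts that proliferates when kept sparse and fuses into myotubes when left to differentiate. The arrays labelled 50 min (3 samples) were set against those labelled 10 min (3 samples), which makes 6 of the 15 samples in the series. Every culture was the stable C2C12 (LKO-1) line, which carries an empty lentiviral vector under puromycin selection, and was held under 70% confluency. All cultures, those labelled 0 min included, had first spent 30 min in 8 µg/mL actinomycin D, so that both groups had no new transcription for longer than their labels state and no untreated sample entered the comparison. The question behind the design was how fast each mRNA is lost once its synthesis has stopped. Each value is the signal of a probe set divided by the 5th percentile of its array, which is called the ratio. Of 25175 probe sets, 12544 exceeded their array's median in 2 or more of the 3 replicates at 0 min; these are called expressed, and they stood for 9879 genes with 1 symbol.

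Actinomycin D intercalates into DNA and stops elongating RNA polymerases, so that a transcript can only persist or be degraded. mRNA decay in mammalian cells usually begins with shortening of the poly(A) tail, and sequence elements in the message set its pace. Short-lived messages are well known among immediate early genes, transcription factors, cytokines and cell cycle regulators, while messages for metabolic enzymes and ribosomal proteins are known to persist. Because every value is relative to the array's own 5th percentile, a rise in the ratio is a rise against that reference and not a gain in molecules per cell.

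The labelled cell type was checked by its markers. Myod1, Myf5, Des, Cdh15, Vim and Itga7, which mark myoblasts, were all expressed, and none passed the test of change (Myod1, the myogenic master regulator, had ratios of 22.1, 20.7 and 19.5 at 10 min and 20.6, 23.6 and 18.2 at 50 min). Of 29 genes that mark myotubes, 11 were expressed, and of 16 measured markers of fibroblasts and adipocytes, 6 were. The expressed myotube markers were Myl4, Ckm, Tnnt1, Tnnt3, Tnni2, Tnnc1, Acta1, Actc1, Mb, Mymk and Chrna1. Those of fibroblasts and adipocytes were Pdgfra, Cd34, Ogn, Pparg, Cebpa and Lpl. None of the listed myosin heavy chains, which define myotubes, was expressed. Whether some cells had begun to differentiate or had traits of other cell types was not tested. No expressed member of either list passed, and their medians were -0.04 and 0.07 on the log2 scale.

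Between 10 and 50 min, 272 of the 12544 expressed probe sets fell, which is 2.17%, and 18 rose, which is 0.143% (limma on log2 ratios with the replicate number as a block, Benjamini-Hochberg adjusted p under 0.05). Counted by gene, 227 of 9879 fell, which is 2.3%, and 11 rose, which is 0.111%. The falls ran from -0.50 to -1.73 log2 with a median of -0.61, and 11 probe sets lost at least 50% of their ratio. All 3 replicate pairs went down for 268 of the 272. For 240 of the 272 the 3 arrays at 50 min lay below the 3 at 10 min without overlap, as did 870 of all expressed probe sets, or 6.94%. These counts depend strongly on how spread is estimated. The fit put its full weight on a spread common to all probe sets (SE 0.15 log2 for each), without which a plain paired fit called 0 in either direction and left 784 at an unadjusted p under 0.05. Over all the settings tried the count that fell ran from 0 to 301 and the count that rose from 0 to 311. Of the 18 rises, 17 kept a positive change in every setting that gave them a value. Of the 272, 106 fell under each of 3 other scalings of the arrays and 65 fell with each replicate left out in turn. All 272 kept a negative change in every setting that gave them a value. The fits with no replicate block or another estimate of spread kept the same change, so its sign could not turn there. The same holds for other level filters, a threshold on size and a fit of every array. Dividing arrays by their median or 75th percentile moved all changes alike, and the median change only from -0.01 to 0.06 or 0.04. As the weakest fall was -0.50, this division could turn none. Where all 3 pairs went down, log2(ratio + 1) and leaving out a replicate could not turn the sign either. The kept signs of the 272 are therefore mostly built in.

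The 3 replicate pairs did not move together as a whole. In replicate 1 the median change was -0.19 log2 and 79.4% of probe sets went down. In replicates 2 and 3 the medians were 0.06 and 0.09 and only 40.0% and 32.5% went down. The median over all expressed probe sets was therefore near 0, at -0.01, with an SD of 0.16 between pairs. The shift was also seen in the arrays' 75th percentiles, which went from 8.98 to 7.48 in replicate 1, from 7.10 to 7.36 in replicate 2 and from 7.50 to 7.84 in replicate 3. An exact sign-flip test of 3 pairs cannot reach a two-sided p below 0.25, so none was made. Whether the shift lies in the cells or in the arrays was not tested.

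**Figure D1:**
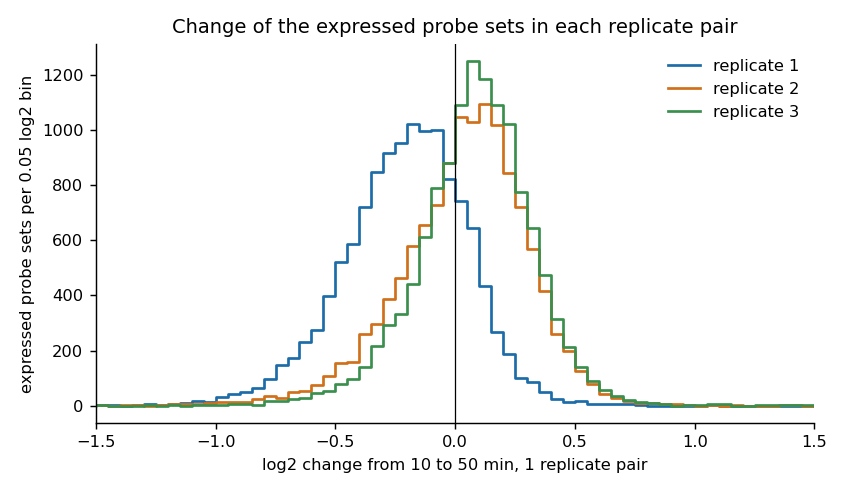
Number of expressed probe sets (y axis, per bin of 0.05 log2) by log2 change from 10 to 50 min (x axis) in each of the 3 replicate pairs. The curve of replicate 1 has its median at -0.19, left of replicates 2 and 3 with medians of 0.06 and 0.09.

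Plk2, a polo-like kinase induced by serum and by p53, had the largest fall of all. Its ratios were 30.6, 25.5 and 21.1 at 10 min and 9.49, 7.45 and 6.31 at 50 min. Every array at 50 min was below every array at 10 min, and the 3 pairs were almost alike, with changes of -1.69, -1.77 and -1.74 (mean -1.73, adjusted p = 9.2e-26). If loss was first order between these 2 time points, it had a half-life of 23.1 ± 0.57 min (SD, n = 3). Such a half-life rests on 2 points a replicate and on the array's own reference.

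Fbxo5 (Emi1) blocks the anaphase-promoting complex and so lets cyclins build up before mitosis. Its ratios were 19.2, 14.5 and 19.7 at 10 min and 5.61, 6.61 and 7.16 at 50 min, with no overlap (change -1.45, adjusted p = 6.3e-18). The half-life over the interval was 28.4 ± 6.45 min (SD, n = 3). Myc, the growth-promoting transcription factor, had ratios of 22.6, 8.70 and 16.3 at 10 min and 6.73, 4.79 and 6.81 at 50 min. All its 50 min arrays were again below the 10 min ones, but its pairs were spread widely, from -0.86 in replicate 2 to -1.75 in replicate 1 (mean -1.29, adjusted p = 9.1e-14), and its half-life was 33.7 ± 11.9 min (SD, n = 3).

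Ccn1, a secreted matrix-associated protein of the serum response, came after Plk2 in size of change. Its ratios were 58.1, 55.3 and 33.5 at 10 min and 17.3, 23.7 and 11.98 at 50 min (change -1.48, adjusted p = 1.5e-18), which gave a half-life of 27.5 ± 4.91 min (SD, n = 3). The groups did not overlap, although replicate 3 was low at both times. Irf1, a transcription factor of the interferon response, had nearly level ratios within each group, with of 9.38, 9.04 and 9.17 at 10 min and 3.89, 3.99 and 4.12 at 50 min (change -1.20, half-life 33.4 ± 1.65 min, SD, n = 3). Ifrd1, a transcriptional co-regulator known in muscle regeneration, started from unequal ratios of 39.0, 19.6 and 29.4 and ended at 19.1, 9.20 and 14.4. Here the groups nearly touched, and the change was still the same in each pair to within an SD of 0.03 (mean -1.05).

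Of the 15 genes with the largest falls, all 15 were called under each of 3 other scalings and with each replicate left out, and in no case did the groups overlap. The others were Errfi1, a feedback inhibitor of the EGF receptor (-1.08), Hes1, a repressor downstream of Notch (-1.03), Ppp1r10, a nuclear targeting subunit of protein phosphatase 1 (-1.01), Nfkbia, which holds NF-kappaB in the cytoplasm (interval half-life 42.0 ± 12.1 min, SD, n = 3), Rpp38, a subunit of RNase P (-0.99), Spry2, an inhibitor of receptor tyrosine kinase signalling (-0.98), the small nucleolar RNA Snora75 (-0.96), the serum-induced kinase Sgk1 (-0.96) and Ier3, an immediate early gene (-0.92). In the fit over all 15 arrays their adjusted p ran up to 0.021. These 15 genes were chosen by the size of their fall on the same arrays, so such calls follow in part from that choice. Of all 272 fallen probe sets 106 were called under each other scaling, 65 with each replicate left out, and 240 had no overlap.

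**Figure D2:**
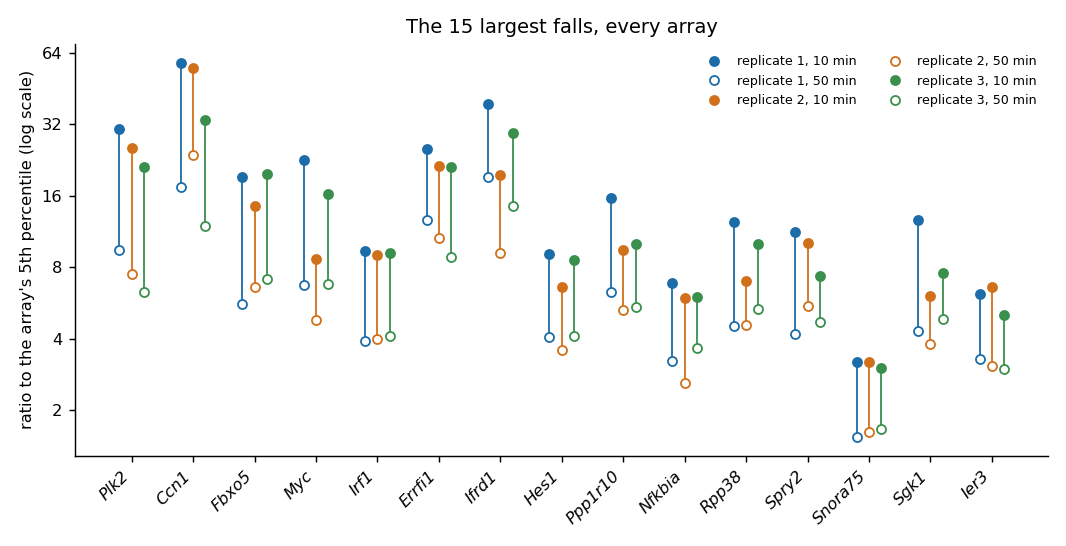
Ratio to the array's 5th percentile (y axis, log scale) of the 15 genes with the largest falls (x axis), with filled points at 10 min, open points at 50 min and 1 colour and line for each replicate. Every line goes down, from 30.6 to 9.49 for Plk2 in replicate 1 and from 3.20 to 1.54 for Snora75 in replicate 1.

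Immediate early genes are those that growth factors switch on without new protein synthesis. Their list, which also holds other genes of the growth-factor response, had the largest share of falls among the gene lists. All lists were written with earlier results of these data known, so this rank is not independent of the data. Of 54 expressed members of the list 27 fell, or 50.0% against 2.3% of all expressed genes, and none rose. The median change was -0.50 against -0.02 for all expressed genes, and 52 of the 54 were below 0. Besides the members above, the fallen ones included the inhibitors of differentiation Id1 (-0.84), Id3 (-0.79) and Id2 (-0.56), Gadd45g (-0.90), Tiparp (-0.82), Klf10 (-0.73), the small GTPases Rnd3 (-0.76) and Rhob (-0.68), Fosl1 (-0.62), Ier2 (-0.62), Hbegf (-0.60) and Fosl2 (-0.55). Jun, a subunit of the AP-1 factor, went from 16.8, 18.4 and 13.8 at 10 min to 8.01, 12.9 and 9.12 at 50 min, and every array at 50 min was below every one at 10 min (change -0.73, adjusted p = 0.00040). The count of fallen members was 14 without replicate 3, 18 without replicate 2 and 2 with no replicate block.

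Some of the best known members of this class did not pass, and these 3 were picked out after their values were seen. Fos, the partner of Jun, had ratios of 2.77, 2.88 and 2.90 at 10 min and 2.98, 2.54 and 2.79 at 50 min, so that the groups overlapped and the change was -0.04. This sign turned under each of 3 other scalings. Its ratios lay close to the medians of all probe sets on these arrays. Those were 2.57, 2.18 and 2.37 at 10 min and 2.39, 2.00 and 2.42 at 50 min. The mean ratio of Fos was 2.01 at 110 min and 1.68 at 230 min. Whether its low level bears on the lack of a call was not tested. Egr1, a zinc finger factor, had ratios of 4.84, 5.23 and 3.46 at 10 min and 2.95, 3.16 and 3.49 at 50 min, so that the groups overlapped (change -0.48, adjusted p = 0.066). Junb had ratios of 4.59, 4.0 and 4.85 at 10 min and 3.41, 2.89 and 3.65 at 50 min, without overlap (change -0.44, adjusted p = 0.12). The ends of the list were Btg2 (0.02) and Maff (0.03), which were not past the threshold.

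Feedback inhibitors of signalling, which are made in response to the signal that they end, also held many falls. Of 43 expressed members 14 fell, or 32.6% against 2.3% of all expressed genes, and the median was -0.39. After Errfi1, Nfkbia and Spry2 came 5 dual-specificity phosphatases that act on MAP kinases, namely Dusp4 (-0.86), Dusp6 (-0.83), Dusp1 (-0.76), Dusp10 (-0.75) and Dusp5 (-0.52). Tnfaip3, an inhibitor of NF-kappaB signalling, fell by 0.72, Socs3, an inhibitor of cytokine receptors, by 0.60, and Smad7, an inhibitor of TGF-beta receptors, by 0.52 on the log2 scale. Smad7 was not called under any of 3 other scalings (adjusted p = 0.034 here). The members at the upper end were Smurf2 (0.09) and Nfkbib (0.16), and neither passed.

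In the list of transcription factors 8 of 77 expressed fell (10.4%, median -0.10). Besides Myc, Irf1, Hes1 and Six4 these were Snai1 (-0.89), Foxc2 (-0.87), Hlx (-0.85) and Snai2 (-0.52). Myc, Irf1 and Hes1 were already counted in the immediate early list. Of 27 expressed regulators of myogenesis 5 fell, which is 18.5% against 2.3% of all expressed genes, and these were Hes1, Id1, Id3, Id2 and Six4. All 5 were already counted in the immediate early or transcription factor list, so this share is not a separate result. Hes1 and the Id proteins are known to hold myogenic factors in check, and Six4 is a homeobox factor of muscle development. Id1 had ratios of 10.9, 6.55 and 9.12 at 10 min and 5.27, 3.97 and 5.42 at 50 min, with no overlap. The factors that drive the lineage had no change past the threshold, with -0.04 for Myf5, -0.08 for Myog, 0.17 for Mef2c and 0.18 for Tcf3. The value of Myod1 was too near 0 for a direction. Runx3 had ratios of 9.64, 5.05 and 6.71 at 10 min and 4.93, 6.05 and 6.99 at 50 min. Its mean of -0.22 came from replicate 1, and without that pair it was 0.16.

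Cell cycle messages held 5 falls in 2 lists, to be set beside the 2.3% of all expressed genes that fell. Of 58 expressed regulators of mitosis and of the anaphase-promoting complex 3 fell (5.17%, median -0.06). These were Fbxo5, Ccnf, a cyclin that serves as a ubiquitin ligase subunit (16.2, 10.6 and 13.0 at 10 min, 8.94, 5.42 and 7.59 at 50 min, change -0.87), and Wee1, the kinase that holds Cdk1 inactive (22.0, 12.2 and 16.5 at 10 min, 9.98, 8.49 and 11.1 at 50 min, change -0.74). All 3 lay lower at 50 min without overlap and were called under each other scaling and each left-out replicate. In the same list Cdca8 (0.27) and Cdc16 (0.20) were highest, with no call. Of 44 expressed genes of G1 and S phase 2 fell (4.55%), E2f8 (-0.51) and Fbxw7 (-0.50), neither of which was called under any of the 3 other scalings, and E2f8 overlapped between groups. Cdk4, at the upper end, had a change of 0.23 that did not pass.

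Replication-dependent histones, whose messages end in a stem loop in place of a poly(A) tail, moved in both directions. Of 18 expressed members 7 fell, or 38.9% against 2.3% of all expressed genes. Only 1 member rose, beside 0.111% of all expressed genes, and the median was -0.45. H4c6 fell from 35.4, 22.8 and 25.3 to 18.7, 13.5 and 15.9, and H4c14 from 67.2, 42.0 and 52.8 to 36.4, 26.2 and 39.5. The other 5 were H2ac4, H2bc14, H4f16, H1f1 and H2bc3, with changes from -0.77 to -0.52, and H2ac4 was called under none of the 3 other scalings. H2bc4 went the other way, from 7.48, 8.28 and 5.83 to 10.3, 10.2 and 9.84 (change 0.51, adjusted p = 0.042). Histone genes have near-identical copies, so that a probe set may read several of them and the member named is uncertain. The count that fell was 2 with arrays divided by their median and 1 without replicate 2.

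Stress, death and chromatin lists held a few falls each, to be read against the 2.3% of all expressed genes. In the integrated stress response 4 of 28 expressed fell (14.3%), namely Ddit4, an inhibitor of mTOR signalling (-0.84), Ppp1r15b, which directs dephosphorylation of eIF2alpha (-0.73), Sesn2 (-0.72) and Chac1 (-0.69). A separate probe set of Ppp1r15b had a change of 0.02. Of 26 expressed p53 targets Plk2, Sesn2 and the phosphatase Ppm1d (-0.62) fell (11.5%), and of 32 apoptosis regulators Birc2 (-0.59) and Mcl1 (-0.51), which both restrain cell death, fell (6.25%). Among 71 chromatin regulators 4 fell (5.63%), and they were Msl2 (-0.88), the Polycomb protein Cbx2 (-0.87), Arid5b (-0.59) and Asxl1 (-0.52). Mcl1 was called in no fit that left out a replicate.

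Of 59 expressed splicing and processing factors 4 fell (6.78%, against 2.3% of all expressed genes), Ppp1r10, the splicing kinase Clk1 (17.0, 12.9 and 16.3 at 10 min, 8.29, 9.87 and 9.07 at 50 min), Pcf11 (-0.64) and Clp1 (-0.61), the last pair being factors of 3' end formation. The median of the list was 0.01. Of 57 genes of the mRNA decay machinery 2 fell (3.51%, near the 2.3% of all expressed genes), Zfp36l2, which binds AU-rich elements (-0.54), and Btg1, a partner of deadenylases (-0.51). Btg1 overlapped between groups and was called in no fit that left out a replicate. Zfp36, a relative of Zfp36l2, had ratios of 3.30, 3.25 and 3.30 at 10 min and 2.26, 2.93 and 2.53 at 50 min, without overlap, and did not pass (change -0.36, adjusted p = 0.30). Celf1, the gene of CUGBP1, had a change of 0.09 and did not pass.

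CUGBP1 is an RNA-binding protein that promotes decay of messages with GU-rich elements. Of 17 messages picked from those that the study names or lists as bound by it in this cell line, all 17 were expressed and 7 fell, which is 41.2% against 2.3% of all expressed genes, with a median of -0.25. These were Fbxo5, Rnd3, Wee1, Ppp1r15b, Jun, Cxcr4 (-0.54) and Smad7. The list comes from experiments in the same cell system and is not independent evidence of direction. Its 17 members were picked by hand, with earlier results of these data known, from a much longer set of bound messages. The study had assayed Jun, Smad7 and Rnd3 as unstable messages. Plk2 and Myc, which are among the largest falls here, were not enriched with CUGBP1 in the study. At the other end Lmo4 had a change of 0.32 (12.2, 11.2 and 11.2 at 10 min, 12.2, 15 and 16.3 at 50 min) and Bub3 of 0.16, and neither passed.

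**Figure D3:**
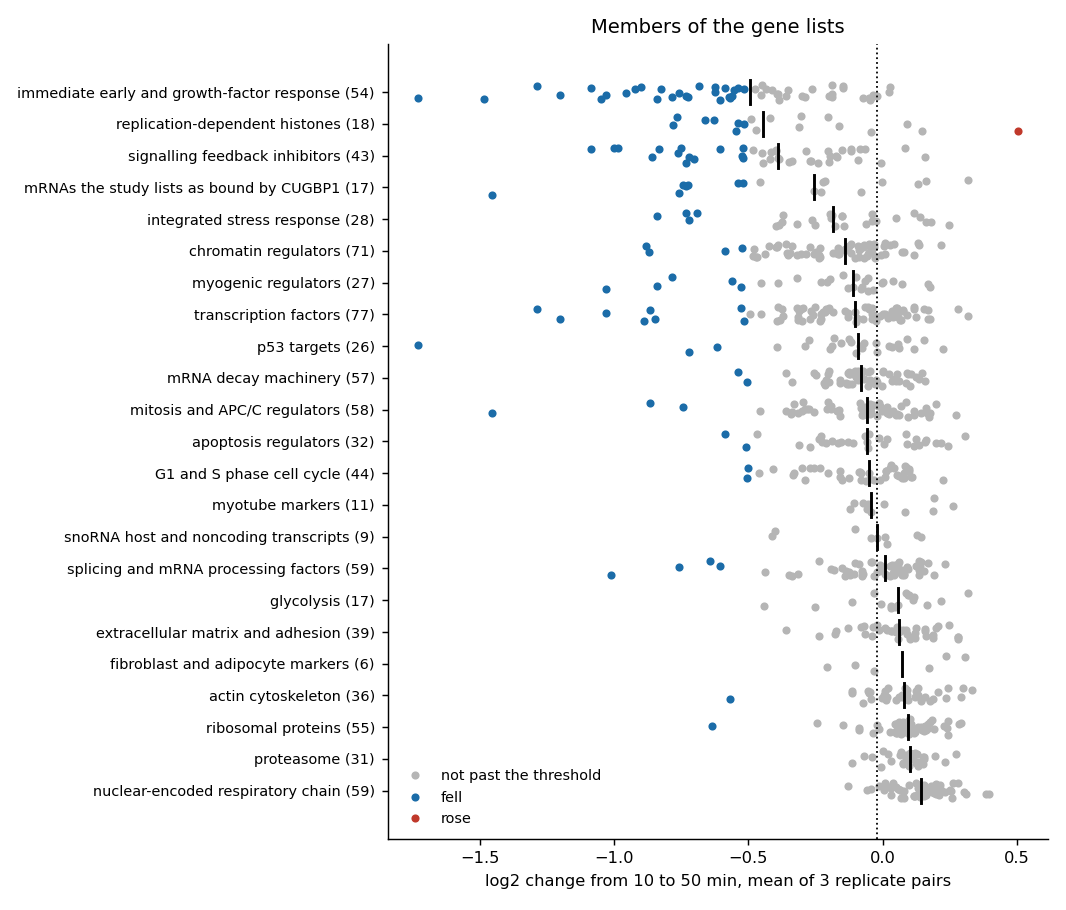
Log2 change from 10 to 50 min (x axis, mean of 3 replicate pairs) of each expressed member of 23 gene lists (y axis, number of expressed members in brackets), in blue for members that fell, red for those that rose and grey for the rest. Black bars give the median of each list and the dotted line that of all expressed genes, -0.02; the bar of the immediate early list is at -0.50 and that of the respiratory chain at 0.14.

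Messages of energy metabolism, protein turnover and the matrix had no member past the threshold. Of 59 nuclear genes of the respiratory chain, 31 of the proteasome, 17 of glycolysis and 39 of extracellular matrix and adhesion none passed in either direction. With 2.3% of all expressed genes falling, lists of this size may hold no call, so these counts are not a result about their members. Their medians were 0.14, 0.10, 0.06 and 0.06. Only 4 of the 59 respiratory chain genes and 4 of the 31 proteasome genes were below 0. The member farthest from 0 was, in the respiratory chain, Cox7b, with 28.4, 24.1 and 29.3 at 10 min and 36.7, 29.2 and 42.6 at 50 min (change 0.40, adjusted p = 0.21), and, in glycolysis, Hk2, the first enzyme of glycolysis in muscle, with 18.9, 11.4 and 13.9 at 10 min and 10.5, 9.39 and 12.2 at 50 min (change -0.44, adjusted p = 0.11). Of 55 ribosomal protein genes only Rpl12 fell (4.31, 3.99 and 4.29 at 10 min, 2.80, 1.87 and 3.77 at 50 min, change -0.63), and it was called under none of the 3 other scalings. The list's median was 0.09. Of 36 actin cytoskeleton genes only Ccn2 fell (-0.57), which the immediate early list also holds.

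Rises were small and less even than falls. Ost4, a subunit of the oligosaccharyltransferase, had the largest rise with all 3 pairs up, with ratios of 16.1, 11.8 and 9.88 at 10 min and 18.6, 23.1 and 24.5 at 50 min (change 0.83, adjusted p = 1.8e-05). Its groups did not overlap, but its pairs ran from 0.21 in replicate 1 to 1.31 in replicate 3. Hmgn5, a nucleosome-binding protein, had 4.92, 3.85 and 4.26 at 10 min and 6.04, 5.70 and 8.38 at 50 min (change 0.61), and Rabl2, a small GTPase, had 4.98, 3.8 and 4.22 at 10 min and 6.52, 5.99 and 7.70 at 50 min (change 0.64). Tmem230 was the most even, with pairs of 0.51, 0.65 and 0.54. Brk1 (0.57), Fkbp1a (0.52) and Eftud2 (0.50) also passed, Fkbp1a with overlapping groups and under none of the 3 other scalings, while Snrpd1 (0.49, adjusted p = 0.054) and Stoml2 (0.48, adjusted p = 0.059) did not. Of the 18 risen probe sets 12 had all 3 pairs up and 8 had groups without overlap, beside 465 (3.71%) of all expressed probe sets. None of the 18 was called in all 3 fits that left out a replicate or in the fit over all 15 arrays. The median SD between pairs was 0.42 for the risen and 0.24 for the fallen probe sets.

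By class of transcript, 223 of the 227 fallen genes were protein coding, out of 9687 expressed. Their share of 2.3% is that of all 9879 expressed genes. The 4 others were Snora75, Snora70 (-0.75), Snord73b (-0.83) and the long noncoding Mir100hg (-0.53). Of 22 genes classed as small nucleolar RNA 2 fell (9.09%), as did 1 of 3 classed as small nuclear RNA and 1 of 111 classed as long noncoding. Of 9 expressed snoRNA host and noncoding transcripts none passed on the probe set chosen for its gene, with Snhg5 at -0.41, Dancr at -0.40 and Malat1 at -0.10. Gas5, a noncoding host of small nucleolar RNAs, had 3 probe sets that disagreed, since the one chosen had a change of 0.14 and the other two fell by 0.72 and 0.91 on the log2 scale. A fall had no single symbol for 24 of the 272 probe sets. The fallen genes covered less of the genome than expressed genes at large, with a median span of 12.1 kb (quartiles 4.95 and 28.7 kb, 227 genes) against 23.6 kb (quartiles 9.99 and 54.3 kb, 9868 genes) in the RefSeq annotation of GRCm38.p6. This is a description of gene span, introns included, and not of message length.

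Whether this interval differed from its neighbours was asked of the rates. The median rate of expressed probe sets was -0.02 log2 per hr from 10 to 50 min, beside -0.61 from 0 to 10 min, -0.60 from 50 to 110 min and -0.12 from 110 to 230 min. For the 272 fallen probe sets, chosen on the second of these intervals, the medians were -1.25, -0.91, -0.81 and -0.15 log2 per hr in the order of time. For the 18 risen ones they were -1.04, 0.89, -0.93 and -0.02. Neighbouring intervals share the arrays between them, so that a high or low array moves both rates in opposite directions. No probe set passed for a difference from the rate of 50 to 110 min, which is 0% of 12544 (limma, 1857 at an unadjusted p under 0.05, smallest adjusted p 0.057), or from the rate of 0 to 10 min (57 at an unadjusted p under 0.05). Plk2 lost 2.60 log2 per hr here and 1.39 from 50 to 110 min, a difference of -1.21 ± 0.47 (SE) with an adjusted p of 0.31. When only the arrays at 10, 50 and 110 min were fitted, 1 probe set was faster and 29 were slower in this interval.

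**Figure D4:**
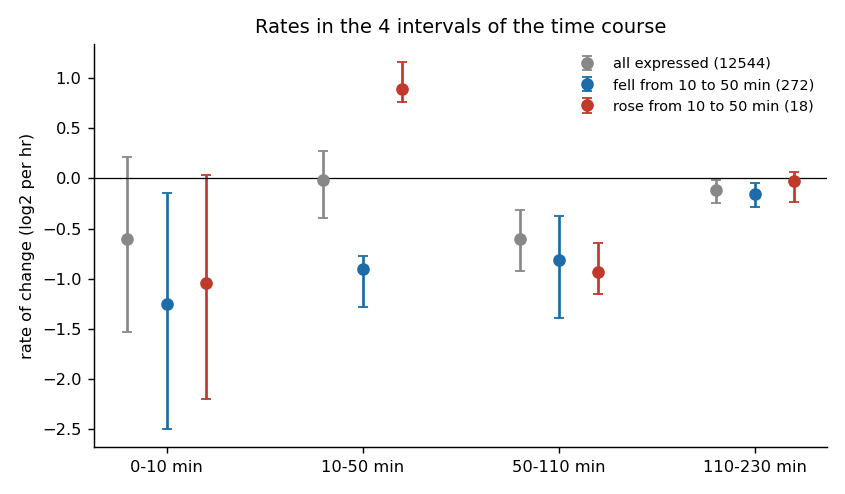
Median rate of change (y axis, log2 per hr) in the 4 intervals of the time course (x axis) for all 12544 expressed probe sets, the 272 that fell and the 18 that rose from 10 to 50 min; bars run from the 10th to the 90th percentile of probe sets. The grey median is -0.02 from 10 to 50 min and -0.60 from 50 to 110 min, and the blue and red points of 10 to 50 min are set by how those probe sets were chosen.

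Over the whole course the large falls went on and then levelled. Plk2 had ratios of 35.0, 24.2 and 24.2 at 0 min and of 2.69, 2.94 and 3.16 at 110 min, and 3.00, 1.75 and 2.53 at 230 min. Myc had already dropped before 10 min in all replicates, from 35.1, 16.1 and 21.8 at 0 min, and reached 2.26, 2.25 and 3.66 at 110 min. Fbxo5 ended at 1.63, 1.39 and 1.80 at 230 min, close to the reference value of its arrays. Ost4 had no common course, since its ratio at 230 min was 13.2, 8.26 and 19.

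**Figure D5:**
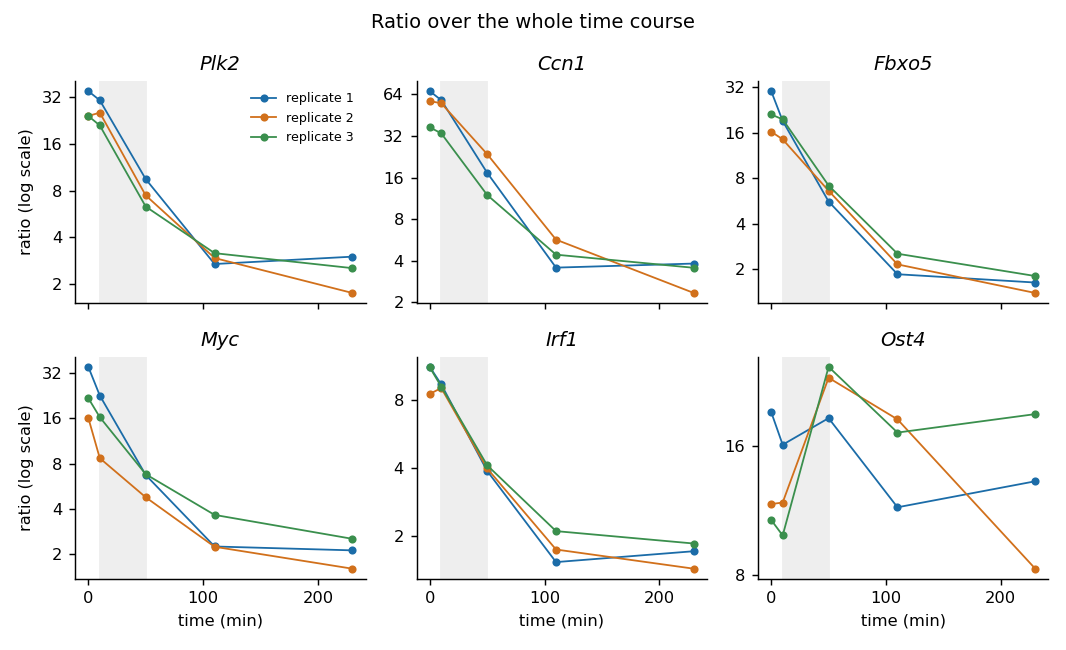
Ratio to the array's 5th percentile (y axis, log scale) against time in min (x axis) for 6 genes, with 1 line for each of the 3 replicates; the grey band marks 10 to 50 min. Plk2, Ccn1, Fbxo5, Myc and Irf1 go down through the band in every replicate, as from 30.6 to 9.49 for Plk2 in replicate 1, and Ost4 goes up.

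The bases ahead of the transcription start are shown for 3 of the 15 largest falls, because growth-factor-induced genes are known for particular start elements. These 3 were picked by hand, and a region was shown only if it held a marked element. They therefore do not stand for the other falls. Transcription was blocked in all of these samples, so no value here measures a promoter. Each line holds the 120 bases before a RefSeq start in GRCm38.p6, read in the direction of the gene. Capitals mark a TATA box, TATAAA, and a cyclic AMP response element, TGACGTCA. The Plk2 region is chr13:110394924-110395043 on the plus strand, that of Ccn1 chr3:145649986-145650105 on the minus strand and that of Errfi1 chr4:150854950-150855069 on the plus strand.
Plk2: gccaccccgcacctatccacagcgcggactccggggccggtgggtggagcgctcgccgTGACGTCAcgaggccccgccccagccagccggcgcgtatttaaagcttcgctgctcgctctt
Ccn1: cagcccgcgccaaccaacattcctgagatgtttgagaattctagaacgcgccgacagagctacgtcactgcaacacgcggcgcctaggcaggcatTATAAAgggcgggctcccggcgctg
Errfi1: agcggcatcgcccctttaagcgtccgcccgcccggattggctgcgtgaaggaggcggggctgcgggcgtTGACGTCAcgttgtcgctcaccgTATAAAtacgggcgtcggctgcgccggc

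The TATAAA of Ccn1 begins 25 bases and that of Errfi1 28 bases before the start, and the TGACGTCA of Plk2 begins 62 and that of Errfi1 51 bases before it. The start regions of 1 chromosome were left out of all counts that follow. Of the 227 fallen genes 173 had at least 1 remaining start region of 250 bases before to 50 after the start, and 8030 of the 9879 expressed genes had one. TATAAA on the gene's strand between 45 and 16 bases before a start was found in 10 of the 173 (5.78%), 1.49% of expressed genes, 2.57% of all genes with a start region and 2.14% of all single start regions. Anywhere in the region on either strand it was found in 12.1%, 8.26%, 15.7% and 13.6% of these in turn. TGACGTCA, which reads the same on both strands, was found in 5.78%, 3.9%, 2.03% and 1.79%, and the CArG box, which serum response factor binds, in 1.73%, 1.71%, 1.81% and 1.63%. These 4 counts were chosen after the values were seen, they carry no test, and a match in letters is not a bound site.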

How the data were processed

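Total RNA from 15 samples (5 times, 3 replicates) was hybridised to Affymetrix mouse gene arrays, 1 array per sample. The deposited values are linear ratios of each probe set to the 5th percentile of its array, made by the authors; how probe sets were summarised and corrected for background is not given in the sources used here. Detection p-values were not used here, and a level filter (above the array median at 0 min in 2 of 3 replicates) took their place. Ratios were taken to log2 and fitted with limma 3.58.1 in R 4.3.3 on the 6 arrays at 10 and 50 min, with replicate number as a block and moderated variances, and p-values were adjusted after Benjamini-Hochberg over 12544 probe sets (threshold 0.05). The prior degrees of freedom were infinite, so every probe set had the same SE of 0.15 and the probe set's own spread did not enter its p-value. Same-numbered arrays deviated together (correlations 0.366, 0.624 and 0.417, against -0.52 to 0.33 for other numbers), and the study fits each time course separately, which is why the numbers were taken as pairs. Each deviation was from the mean of the 3 arrays at its time, so a positive covariance within a number forces negative ones across numbers. The contrast between these correlations is thus partly built in. The time course was repeated in triplicate, and the labels do not say whether each repeat was grown as a separate culture. The p-values of the 50 against 10 min fit set each change against a spread pooled over all probe sets. They do not measure a gene's own spread between samples, and the pooled spread may be technical. Rates were compared on all 15 arrays. Precision is limited by how many arrays there are.

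Of 25175 probe sets 21044 had 1 symbol, 1492 several and 2639 none in the platform annotation, and 20959 matched the RefSeq table of GRCm38.p6. A gene was read from its probe set with the highest mean ratio at 0 min. Named genes were Myc, Plk2, Fbxo5, the 15 largest falls, the 10 largest rises (falls and rises with all 3 pairs in that direction, and those among the rises that did not pass marked as such), the ends of each gene list (not all of which are printed) and genes the study names; Gdpd3, Igf1 and Gapdh among these had no expressed probe set with 1 symbol. Other named list members were picked after their values were seen. The members and lists were chosen with earlier results of these data known. Alternatives were other scalings, log2(ratio + 1), other filters, leaving out replicates, no block, all 15 arrays, a trended robust prior and a threshold on size. Tables and plots used Python 3.11.15, pandas 2.3.3, numpy 2.4.6 and matplotlib 3.10.9.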

Additional observations from a re-analysis of the deposited data

How the results depend on the processing

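The count of falls, 272, was 110 with arrays divided by their median, 231 by their 75th percentile, 188 after quantile normalization, 182 with log2(ratio + 1), 47 with no level filter, 99 with the filter at the 75th percentile, 38 for a change beyond 0.25 log2, 301 with a trended robust prior and 101 to 284 with 1 replicate left out (112 without replicate 2 and 101 without replicate 3). The count of rises, 18, was 36 by the 75th percentile, 0 with no filter, 8 with the filter at the 75th percentile, 2 beyond 0.25 log2 and 0 to 311 with 1 replicate left out (311 without replicate 1, 9 without replicate 2, 0 without replicate 3). With no replicate block, 3 fell and 0 rose (659 at an unadjusted p under 0.05), and with all 15 arrays in the blocked fit, 32 fell and 0 rose. Chosen after seeing the data, all 15 arrays divided by their 75th percentile gave 164 falls and 12 rises, and the paired fit with no moderation gave 0 and 0. The median change ran from -0.07 to 0.08, and moved from its reported -0.01 by less than the SD of 0.16 between the pairs of the reported values. Against 50 to 110 min, the 75th percentile gave 2 faster and 1 slower, quantile normalization 1 and 1, the filter at the 75th percentile 1 slower, without replicate 2 0 faster and 2 slower, and 9 arrays 1 faster and 29 slower. Against 0 to 10 min, 9 arrays gave 1 faster and 2 slower, and other settings 0. The causes were not tested. Of the 18 risen probe sets 17 stayed positive in every setting that gave them a value. Many of these settings could not turn a sign, since they left each change as it was or moved all changes alike. Among the genes named in the text, signs turned for some that had not passed, on the log2 scale. Divided by the median Myod1 became 0.063 and Fos 0.023, by the 75th percentile 0.046 and 0.0054, and after quantile normalization Fos became 0.029. With 1 replicate left out, changes ran from -0.020 to 0.064 for Btg2, -0.062 to 0.18 for Maff, -0.043 to 0.27 for Smurf2, -0.025 to 0.31 for Nfkbib, -0.23 to 0.0056 for Malat1, -0.007 to 0.25 for Gas5, -0.099 to 0.044 for Myod1, -0.45 to 0.16 for Runx3 and -0.12 to 0.025 for Fos.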

Other observations

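Zinc finger genes whose symbols begin with Zfp and a number, most of them putative transcription factors, were prominent among the falls. No list above was built on this family, but Zfp36, Zfp36l1 and Zfp36l2, which these symbols also take in, are in lists above. Zfp36l2, described above as a binder of AU-rich elements, is among the falls counted here. Of 189 expressed members 22 fell, which is 11.6% against 2.3% of all expressed genes, and none rose. Their median change was -0.24 log2, against -0.02 for all expressed genes. The family was singled out after the fallen genes had been seen, and it was not tested as a set.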
